A study of Mus musculus with 2 samples.

Results

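The enzymes, sensors and regulators of cholesterol and fatty acid synthesis were examined at the RNA level in both early B cell stages, pre-pro-B and pro-B. The set holds 32 genes, chosen by name, of 20246 protein-coding genes with a RefSeq mRNA in the deposited table. It was divided into 18 genes of sterol synthesis, 5 regulators of the SREBP transcription factors and 9 genes of fatty acid synthesis. Steady state RNA had been measured in 2 libraries, 1 per cell type. The pre-pro-B library came from *Ebf1* -/- cells, derived from female embryonic liver and arrested before B lineage commitment, which were grown with Il-7 (5 ng/mL), Scf (10 ng/mL) and Flt3l (10 ng/mL). The pro-B library came from *Rag2* -/- cells, derived from adult male bone marrow and arrested before recombination of the *Igh* locus, which were grown with Il-7 (5 ng/mL) alone. Both have the C57BL/6 strain background, and both were kept on OP-9, a mouse bone marrow stromal line, from which they were washed free, and remaining stromal cells were then left to attach before RNA was taken. Cell stage therefore cannot be told apart from genotype, sex, age, tissue of origin and the added cytokines. With 1 library per cell type no difference has a replicate check, and no p-value is given.

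Cells make cholesterol from acetyl-CoA through mevalonate, isoprenoid diphosphates, squalene and lanosterol. Fatty acids are built from the same acetyl-CoA, which *Acly* supplies in the cytosol, and are then lengthened by Elovl enzymes and given double bonds by Scd and Fads enzymes. Both routes are controlled by SREBP proteins, encoded by *Srebf1* and *Srebf2*, which *Scap* escorts out of the endoplasmic reticulum when sterols are scarce and Insig proteins hold back when sterols are plentiful. Dividing lymphoid cells need both products for new membranes.

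Levels are given as FPKM, sequenced fragments scaled to transcript length and library size, summed over the RefSeq mRNAs of each gene. A gene was counted as higher or lower when the ratio of the pro-B over the pre-pro-B level, on the scale log2(FPKM + 1), reached 2-fold, and only genes with a mean FPKM of at least 1 over both libraries were considered. The intervals in parentheses are the 95% confidence intervals that Cuffdiff gave for the most abundant RefSeq mRNA of the gene. They describe a model within 1 library and not the spread between cultures. The labels give a depth of about 90 M reads of 97 bp per library. At that depth the FPKM of the most abundant mRNA stood for between about 304 and about 237357 fragments per library for the 31 genes that passed the filter. The remaining gene, *Hmgcs1*, was listed at 0 in both libraries.

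The promoters of these genes are shown first. The motifs were chosen after the values were seen, and their part in any difference between the libraries was not tested. Promoter sequences from RefSeq on GRCm38.p6, a later build than the mm9 of the deposited values, were found for 26 of the 32 genes and not for *Fdps*, *Fdft1*, *Sqle*, *Scd1*, *Scd2* and *Fads1*. In the 250 bases before each start, the CCAAT box (CCAAT, on either strand) was found for 14 of 15 sterol synthesis genes, 4 of 5 regulators and 2 of 6 fatty acid genes, a gene with several promoters counting if any of them held it. It was found for 41.2% of all genes that passed the FPKM filter and have a promoter entry. The GC box (GGGCGG, on either strand) was found for 14 of 15 sterol genes, 5 of 5 regulators and 2 of 6 fatty acid genes, against 65.1% of the genes that passed the filter. Counted over single promoters of 250 bases, the shares among all 32851 promoters were 33.8% for the CCAAT box and 32.7% for the GC box. The core of the sterol regulatory element, searched as TCACNCCAC on either strand, was found in 1.05% of all promoters and in 1 of the 34 promoters of these genes, that of *Hmgcs1*, with its first base 137 bases before the start. Matches did not overlap one another in the sequences printed here. A match is a run of letters and not a measured binding site. The search used 1 run of letters per motif within 250 bases, so a promoter without a match is not read as lacking the element.

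The 3 sterol synthesis genes with a promoter entry and the largest ratios (*Hsd17b7*, *Nsdhl* and *Sc5d*) are shown together with *Tm7sf2*, the sterol gene with a lower level in the pro-B library, and with *Insig1* and *Elovl6*, which were higher. Capitals mark CCAAT and GC boxes on either strand. The stretches are chr1:169969206-169969455 (minus strand), chrX:72918271-72918520 (plus), chr9:42264301-42264550 (minus), chr19:6067851-6068100 (minus), chr5:28071162-28071411 (plus) and chr3:129532136-129532385 (plus), each written 5′ to 3′ and ending at the base before the start.
Hsd17b7: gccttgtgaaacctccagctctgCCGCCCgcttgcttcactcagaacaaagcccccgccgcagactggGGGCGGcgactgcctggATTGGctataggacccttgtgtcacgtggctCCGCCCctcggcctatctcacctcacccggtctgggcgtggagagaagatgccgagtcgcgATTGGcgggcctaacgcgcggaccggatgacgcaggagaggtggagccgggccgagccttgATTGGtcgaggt
Nsdhl: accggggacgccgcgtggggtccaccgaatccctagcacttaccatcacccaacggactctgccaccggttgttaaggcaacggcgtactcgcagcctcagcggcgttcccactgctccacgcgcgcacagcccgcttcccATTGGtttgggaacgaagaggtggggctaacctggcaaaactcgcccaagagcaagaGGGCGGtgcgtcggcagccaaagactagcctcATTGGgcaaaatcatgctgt
Sc5d: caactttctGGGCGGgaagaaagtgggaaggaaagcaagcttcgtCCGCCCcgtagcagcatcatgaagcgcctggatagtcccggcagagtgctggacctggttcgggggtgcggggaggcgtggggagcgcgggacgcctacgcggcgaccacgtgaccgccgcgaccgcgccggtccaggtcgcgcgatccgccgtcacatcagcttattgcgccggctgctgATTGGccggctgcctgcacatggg
Tm7sf2: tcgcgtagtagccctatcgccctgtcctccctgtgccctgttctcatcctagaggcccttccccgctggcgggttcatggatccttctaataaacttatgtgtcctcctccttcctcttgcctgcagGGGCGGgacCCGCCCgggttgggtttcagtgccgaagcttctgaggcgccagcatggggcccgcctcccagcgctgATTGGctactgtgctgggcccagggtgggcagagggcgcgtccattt
Insig1: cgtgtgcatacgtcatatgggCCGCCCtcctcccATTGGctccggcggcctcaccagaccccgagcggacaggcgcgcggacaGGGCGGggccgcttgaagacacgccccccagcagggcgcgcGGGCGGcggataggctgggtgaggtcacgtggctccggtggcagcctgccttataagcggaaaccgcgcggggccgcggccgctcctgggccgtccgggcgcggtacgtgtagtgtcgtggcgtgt
Elovl6: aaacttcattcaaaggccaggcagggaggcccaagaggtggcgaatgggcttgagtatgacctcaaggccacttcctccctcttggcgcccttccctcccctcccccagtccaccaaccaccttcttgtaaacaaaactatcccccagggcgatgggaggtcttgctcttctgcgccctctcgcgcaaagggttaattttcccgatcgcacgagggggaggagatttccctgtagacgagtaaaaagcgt

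*Hsd17b7* carries 3 CCAAT boxes, whose first bases lie 165, 73 and 12 bases before the start, and 3 GC boxes. The *Nsdhl* promoter has 2 CCAAT boxes, 109 and 20 bases before the start, and *Sc5d* has 1, at 24 bases. *Tm7sf2*, which was not higher in the pro-B library, also has a CCAAT box, at 47 bases, and 2 GC boxes. *Elovl6* has 0 of either motif in this window.

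Of the 31 genes that passed the filter, 12 were higher by 2-fold or more in the pro-B library and 0 were lower by 2-fold or more. Among all 10129 genes that passed, 12.2% were higher and 17.9% were lower. The median log2 ratio was 0.61 over the 31 genes and -0.13 over all genes that passed. In bulk RNA, fewer cells of a type and less RNA per cell cannot be told apart. The 12 higher genes were 9 of 17 sterol synthesis genes, 1 of 5 regulators and 2 of 9 fatty acid synthesis genes. The median log2 ratio was 1.06 for sterol synthesis, 0.54 for the regulators and 0.37 for fatty acid synthesis. The sterol genes ranged from -0.18 to 2.19, and 16 of 17 had a ratio above 0. In fatty acid synthesis, the ratios of 7 genes lay between -0.11 and 0.57 and those of *Elovl6* and *Scd1* stood above the rest.

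**Figure D1:**
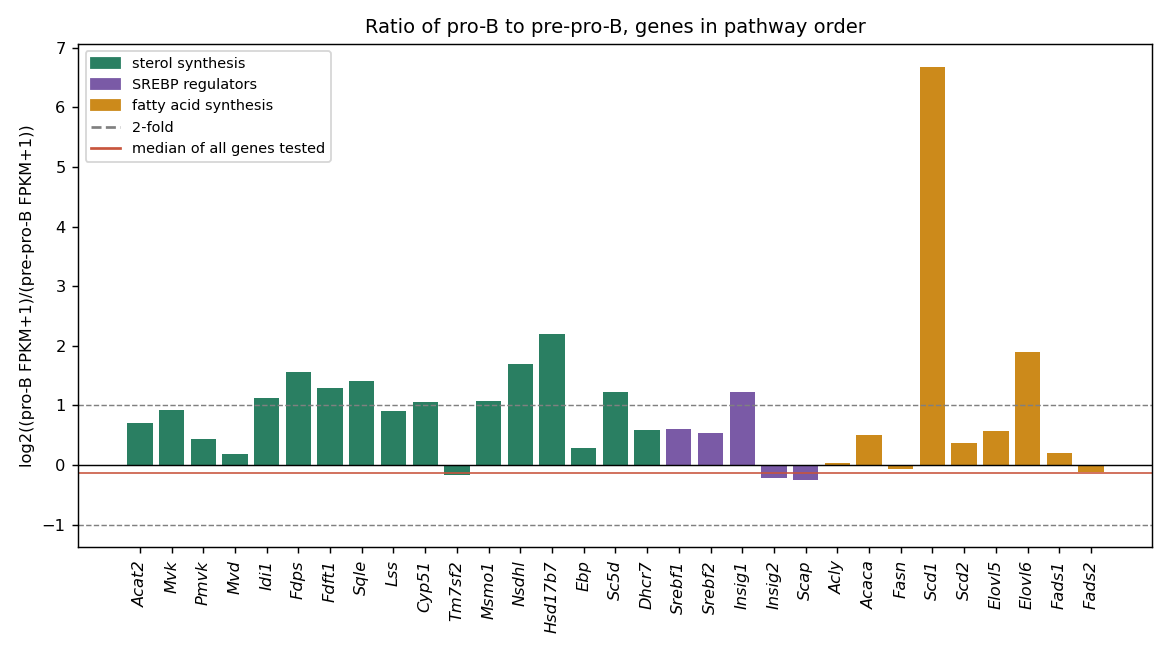
Log2 ratio of FPKM, pro-B over pre-pro-B, each with 1 added, for the 31 genes that passed the filter, in pathway order and coloured by group. Dashed lines mark 2-fold and the red line the median of all genes tested (-0.13). Bars of 9 sterol genes, of *Insig1*, of *Scd1* and of *Elovl6* pass the upper dashed line, and no bar passes the lower one.

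The Cuffdiff intervals did not overlap for 1 of the 31 genes, *Scd1*, which was higher in the pro-B library. Over all genes that passed the filter, the intervals did not overlap for 1.48% with the higher level in the pro-B library and for 3.39% with the higher level in the pre-pro-B library. No gene of the set was among the latter. For each of the 17 sterol genes the intervals of the libraries overlapped.

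**Figure D2:**
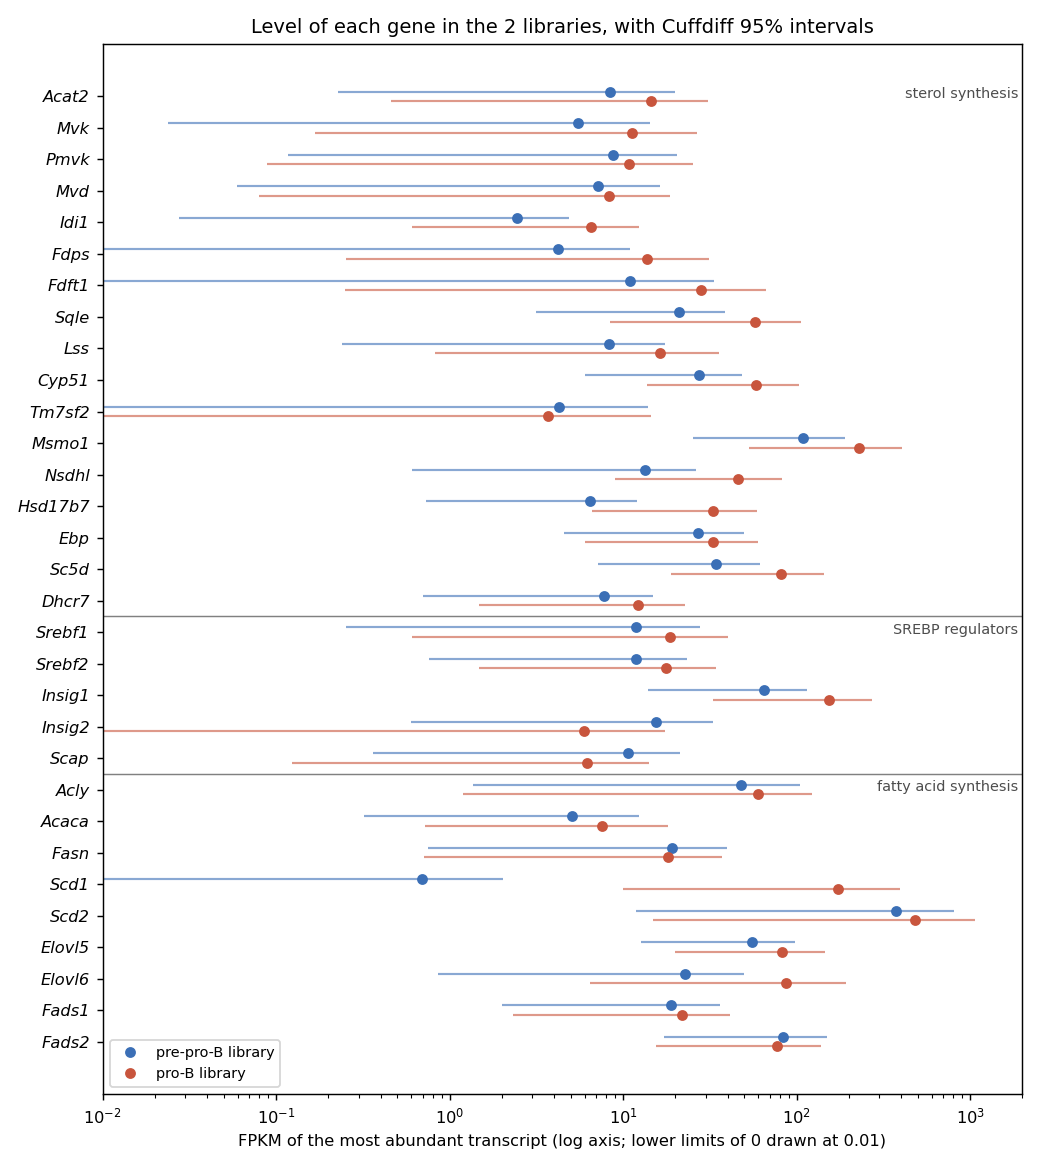
FPKM of the most abundant RefSeq mRNA of each gene in the pre-pro-B (blue) and pro-B (red) library on a log axis, with Cuffdiff 95% intervals as lines. The lines of *Scd1* are the ones that do not overlap, and the red point lies to the right of the blue point for 16 of 17 sterol genes.

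The early steps of sterol synthesis lead from acetyl-CoA to squalene. *Acat2*, which joins acetyl-CoA units, was at 8.43 FPKM in the pre-pro-B library (0.228 to 19.8) and 14.4 in the pro-B library (0.457 to 30.8). *Hmgcs1*, which makes hydroxymethylglutaryl-CoA, is represented by 2 rows of NM_145942, both on an unplaced part of chromosome 13 in mm9, and both were listed at 0 with an upper limit of 0. Its listed value is not read as absence here. *Mvk*, the first kinase of the mevalonate route, was at 5.47 FPKM in the pre-pro-B library and 11.3 in the pro-B library, a log2 ratio of 0.93. *Pmvk*, the second kinase, had 10.3 and 14.3. *Mvd*, which makes isopentenyl diphosphate, had 7.17 and 8.25. The levels of these kinases and of *Mvd* differed by less than 2-fold on the scale used.

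The 3 steps that lead from isopentenyl diphosphate to squalene were each higher by 2-fold or more in the pro-B library. *Idi1*, the isopentenyl diphosphate isomerase (chromosome 13 of mm9, 8884852 to 8891642 in the deposited locus), was at 2.46 FPKM in the pre-pro-B library (0.0276 to 4.89) and 6.52 in the pro-B library (0.606 to 12.4). *Fdps*, the farnesyl diphosphate synthase, was at 5.48 FPKM in the pre-pro-B library and 18.0 in the pro-B library, summed over its mRNAs, a log2 ratio of 1.55. Its mRNAs NM_134469 and NM_001253751 kept nearly the same proportion, with NM_134469 at 76.5% of the gene's FPKM in the pre-pro-B library and 76.0% in the pro-B library. *Fdft1*, the squalene synthase, had 11.0 (0 to 33.3) and 28.3 (0.251 to 66.5). In the deposited table the locus of *Fdft1* is shared with *Ctsb*, so Cuffdiff estimated them within the same locus.

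From squalene on, 6 of 10 genes were higher by 2-fold or more in the pro-B library, and in the steps before it 3 of 7 were, beside 12.2% of all genes that passed the filter. The median log2 ratios of these groups were 1.06 and 0.93, and a difference between the groups was not tested. *Sqle*, the squalene epoxidase, was at 21.0 FPKM in the pre-pro-B library (3.15 to 38.7) and 57.3 in the pro-B library (8.41 to 106). *Lss*, which closes the sterol rings to give lanosterol, had 8.29 and 16.4, a log2 ratio of 0.90. *Cyp51*, the lanosterol demethylase, had 27.5 (6.00 to 48.7) and 58.3 (13.8 to 103). *Cyp51* lay close to the 2-fold line, at a log2 ratio of 1.06.

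*Msmo1*, *Nsdhl* and *Hsd17b7* act in turn to remove methyl groups from the sterol ring. Among the sterol genes of the set, *Msmo1* had the highest level. Its FPKM was 109 in the pre-pro-B library (25.2 to 190) and 229 in the pro-B library (53.3 to 405). *Msmo1* made up 35.2% of the summed FPKM of the sterol genes in the pre-pro-B library and 34.2% in the pro-B library. *Hmgcs1* entered that sum at its listed 0. *Nsdhl* (chromosome X of mm9, 70163860 to 70203867 in the deposited locus) had 13.4 (0.606 to 26.2) and 45.8 (8.94 to 82.6). *Hsd17b7* (chromosome 1, 171879666 to 171899372) had the largest ratio of the route, with an FPKM of 6.43 in the pre-pro-B library (0.734 to 12.1) and 32.9 in the pro-B library (6.62 to 58.7). The log2 ratio was 1.07 for *Msmo1*, 1.70 for *Nsdhl* and 2.19 for *Hsd17b7*.

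The last steps rearrange double bonds of the ring. *Sc5d*, a sterol desaturase, was at 34.2 FPKM in the pre-pro-B library (7.17 to 61.1) and 81.3 in the pro-B library (19.0 to 143). *Ebp*, the sterol isomerase, had 27.0 and 33.0, and *Dhcr7*, which reduces the last double bond on the way to cholesterol, had 7.75 and 12.1. *Ebp* and *Dhcr7* lay within 2-fold.

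*Tm7sf2* was the only sterol gene that passed the filter with a lower level in the pro-B library, at an FPKM of 4.28 (0 to 13.9) and 3.68 (0 to 14.5). Its locus is shared with *Vps51* in the deposited table. *Tm7sf2* encodes the sterol reductase that follows *Cyp51*, and *Lbr*, the lamin B receptor of the inner nuclear membrane, carries the same reductase activity. *Lbr*, from a list of other sterol genes, was at 107 FPKM in the pre-pro-B library (24.5 to 189) and 399 in the pro-B library (61.6 to 737), a log2 ratio of 1.89. Of the 5 genes of that list 1, *Lbr*, was higher by 2-fold or more and 0 were lower. Among all genes that passed the filter, 12.2% were higher and 17.9% were lower.

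The summed FPKM of the 18 sterol genes was 309 in the pre-pro-B library and 671 in the pro-B library, a ratio of 2.17. For the 8 genes before squalene the sums were 50.3 and 101, and for the 10 genes from squalene on they were 259 and 570. *Hmgcs1* entered the sums over 18 and over 8 genes at its listed 0, which is not read as absence. Across the genes above 0, the highest level was 44.3 times the lowest in the pre-pro-B library and 62.4 times in the pro-B library, *Msmo1* being the highest in both libraries. The lowest was *Idi1* in the pre-pro-B library and *Tm7sf2* in the pro-B library.

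Of the regulators, *Insig1* was higher in the pro-B library, and the other 4 lay within 2-fold. *Insig1*, which retains SREBP in the endoplasmic reticulum and is itself a target of SREBP, was at 64.9 FPKM in the pre-pro-B library (13.9 to 114) and 153 in the pro-B library (33.0 to 270), a log2 ratio of 1.23. *Srebf1* was at 11.8 FPKM and 18.5. *Srebf2*, whose product acts mainly on sterol genes, had 11.9 and 17.7. Their log2 ratios were 0.61 and 0.54, and their levels were nearly equal to each other within each library. The locus of *Srebf1* is shared with *Rai1* in the deposited table.

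*Scap*, the escort of SREBP, was at 11.2 FPKM in sum in the pre-pro-B library and 9.24 in the pro-B library. *Insig2*, the second Insig gene, had 15.5 and 13.1. Both were slightly lower in the pro-B library and within 2-fold. The division among RefSeq mRNAs differed more than the sums did. NM_178082 of *Insig2* held 100% of the gene's FPKM in the pre-pro-B library and 45.3% in the pro-B library, where NM_133748 held 54.7%. The FPKM of NM_133748 was listed at 0 in the pre-pro-B library (0 to 0.0214) and was 7.17 in the pro-B library (0.0445 to 18.5). In *Scap*, NM_001001144 held 4.60% of the FPKM in the pre-pro-B library and 33.2% in the pro-B library. The division of reads among mRNAs of a gene rests on Cuffdiff's model, and the *Scap* intervals of each mRNA overlapped.

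**Figure D3:**
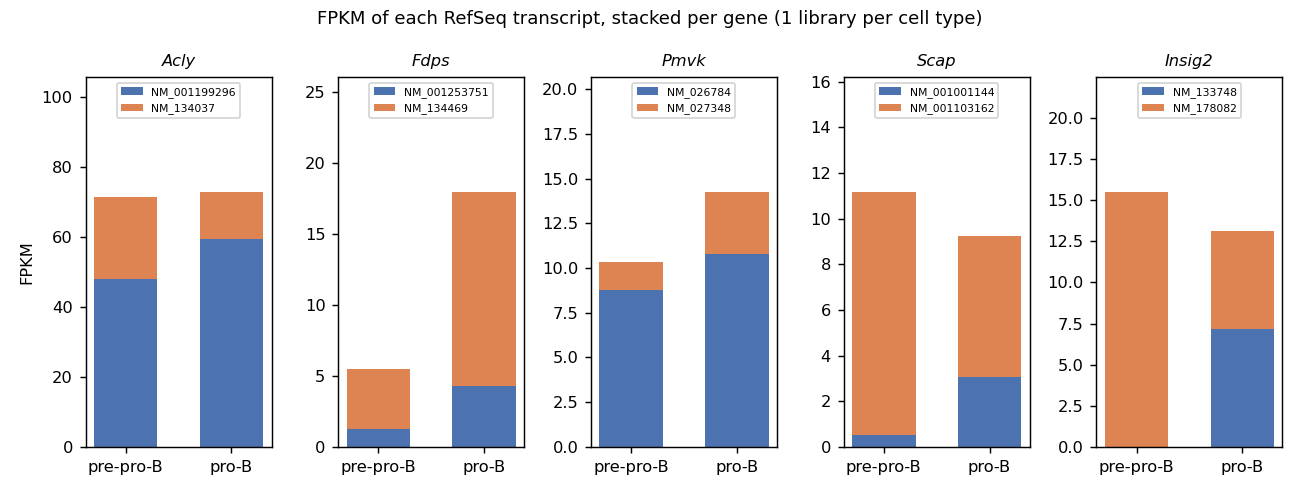
FPKM of each RefSeq mRNA, stacked per gene, for the 5 genes of the set with several mRNAs above 0.01. The 2 parts of the *Fdps* bar keep their proportion between the libraries, whereas the lower part of the *Insig2* bar is present in the pro-B library alone.

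Of 11 genes that process SREBP or act in its turnover, 1 was higher by 2-fold or more in the pro-B library and 0 were lower, with a median log2 ratio of -0.45. Among all genes that passed the filter, 12.2% were higher and 17.9% were lower. The higher gene was *Syvn1*, a ubiquitin ligase of the endoplasmic reticulum, with a summed FPKM of 8.63 and 32.6.

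In fatty acid synthesis, the enzymes that build the chain differed little between the libraries. *Acly*, the ATP citrate lyase, was at 71.4 FPKM in sum in the pre-pro-B library and 72.9 in the pro-B library. *Acaca*, the acetyl-CoA carboxylase, had 5.08 (0.319 to 12.4) and 7.58 (0.717 to 18.2). *Fasn*, the fatty acid synthase, had 19.1 (0.747 to 39.8) and 18.1 (0.708 to 37.3). The log2 ratios of these 3 genes were 0.03, 0.50 and -0.07.

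The stearoyl-CoA desaturases, which place a double bond into saturated fatty acids, showed the largest difference of the set. *Scd1* (chromosome 19 of mm9, 44468941 to 44482199, minus strand) was at 0.698 FPKM in the pre-pro-B library (0 to 2.03) and 173 in the pro-B library (10.0 to 394). The level in the pro-B library was 248 times that in the pre-pro-B library, and the log2 ratio with 1 added was 6.68, rank 15 from the top of 10129 genes. *Scd1* passed the filter through its level in the pro-B library. *Scd2* (44368166 to 44381354 on the same chromosome, plus strand) had the highest FPKM of the set in both libraries, at 375 (11.9 to 806) and 484 (14.8 to 1072), a log2 ratio of 0.37.

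*Scd1* made up 0.186% of the joint FPKM of *Scd1* and *Scd2* in the pre-pro-B library and 26.3% in the pro-B library, while the joint FPKM was 375 and 657. Their neighbours *Scd3* and *Scd4* were below an FPKM of 1 in both libraries. *Scd1* and *Scd2* are related in sequence, and reads that matched both were divided by Cuffdiff's correction for multiple matches. How many reads of *Scd1* were shared with *Scd2* was not tested.

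Among the elongases, *Elovl6*, which lengthens palmitate to stearate, the substrate of Scd enzymes, was at 22.7 FPKM in the pre-pro-B library (0.857 to 49.4) and 87.4 in the pro-B library (6.40 to 193), a log2 ratio of 1.90. *Elovl5*, which lengthens polyunsaturated fatty acids, had 55.4 (12.8 to 98.0) and 82.8 (19.8 to 146). *Elovl5* lay within 2-fold, at a log2 ratio of 0.57.

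The front-end desaturases of polyunsaturated fatty acids lay within 2-fold. *Fads1* was at 18.9 FPKM in the pre-pro-B library (2.01 to 36.2) and 21.8 in the pro-B library (2.31 to 41.4). *Fads2* had 83.5 (17.2 to 150) and 77.1 (15.5 to 139). *Fads3*, a related gene from the list of other fatty acid genes, differed from them, with an FPKM of 19.1 (1.29 to 42.6) in the pre-pro-B library and 0.447 (0 to 1.52) in the pro-B library. *Fads3* was 15.7% of the joint FPKM of the 3 Fads genes in the pre-pro-B library and 0.450% in the pro-B library.

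Of the 14 other fatty acid synthesis genes that passed the filter, from a list of 21, 1 was higher by 2-fold or more in the pro-B library and 2 were lower. These shares were 7.14% and 14.3%, beside 12.2% and 17.9% of all genes that passed the filter. The higher gene was *Elovl4*, which makes very long chains. Its FPKM was 0.0154 in the pre-pro-B library (0 to 0.0388) and 2.43 in the pro-B library (0 to 4.89), and these intervals overlapped. The lower genes were *Fads3* and *Elovl7*, another elongase, with an FPKM of 3.03 (0.269 to 5.79) and 0.0670 (0 to 0.160). *Elovl4*, *Fads3* and *Elovl7* each passed the filter through the library with the higher level. The median log2 ratio of the 14 genes was -0.34.

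**Figure D4:**
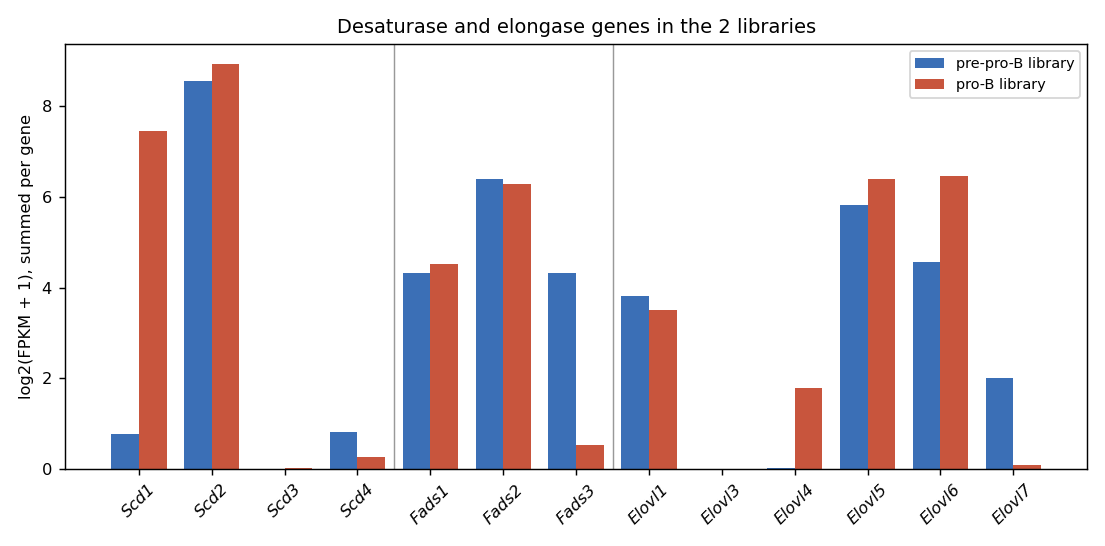
Log2(FPKM + 1), summed per gene, of the Scd, Fads and Elovl genes in the pre-pro-B (blue) and pro-B (red) library. *Scd2* is high in both libraries and *Scd1* in the pro-B library alone, *Elovl6* is taller in red, and *Fads3* and *Elovl7* are taller in blue.

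Cholesterol is also taken up, moved, stored and exported. Of 13 genes of uptake, transport and storage that passed the filter, 2 were higher by 2-fold or more in the pro-B library and 3 were lower. These shares, 15.4% and 23.1%, lay near the 12.2% and 17.9% of all genes that passed the filter. *Stard4*, a sterol transfer protein, was at 12.0 FPKM in the pre-pro-B library and 35.5 in the pro-B library. *Mylip*, a ubiquitin ligase that acts on lipoprotein receptors, had 9.98 and 38.9. *Npc1*, which exports cholesterol from lysosomes, had 45.4 (1.70 to 92.8) and 3.62 (0 to 10.4), and *Soat2*, a sterol esterifying enzyme, had 4.55 and 0.0228. Of 3 efflux and oxysterol genes that passed, from a list of 9, 0 were higher and 2 were lower. *Abca1*, the exporter of cholesterol to apolipoproteins, was at 8.03 FPKM (0.601 to 17.9) in the pre-pro-B library and 0.0839 (0 to 0.289) in the pro-B library, and these intervals did not overlap. *Abcg1*, a second exporter, had 17.5 and 7.52. *Soat2* and *Abca1* each passed the filter through the level in the pre-pro-B library.

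The share of higher genes among those that use isoprenoids was 13.3%, near the 12.2% of all genes that passed the filter, of which 17.9% were lower. Of 15 genes that use isoprenoids for protein prenylation, dolichol or ubiquinone, 2 were higher by 2-fold or more and 0 were lower, with a median log2 ratio of -0.14. They were *Zmpste24*, a protease that processes prenylated proteins, with an FPKM of 29.8 and 139, and *Pdss1*, which makes the side chain of ubiquinone, with 2.83 and 9.65.

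**Figure D5:**
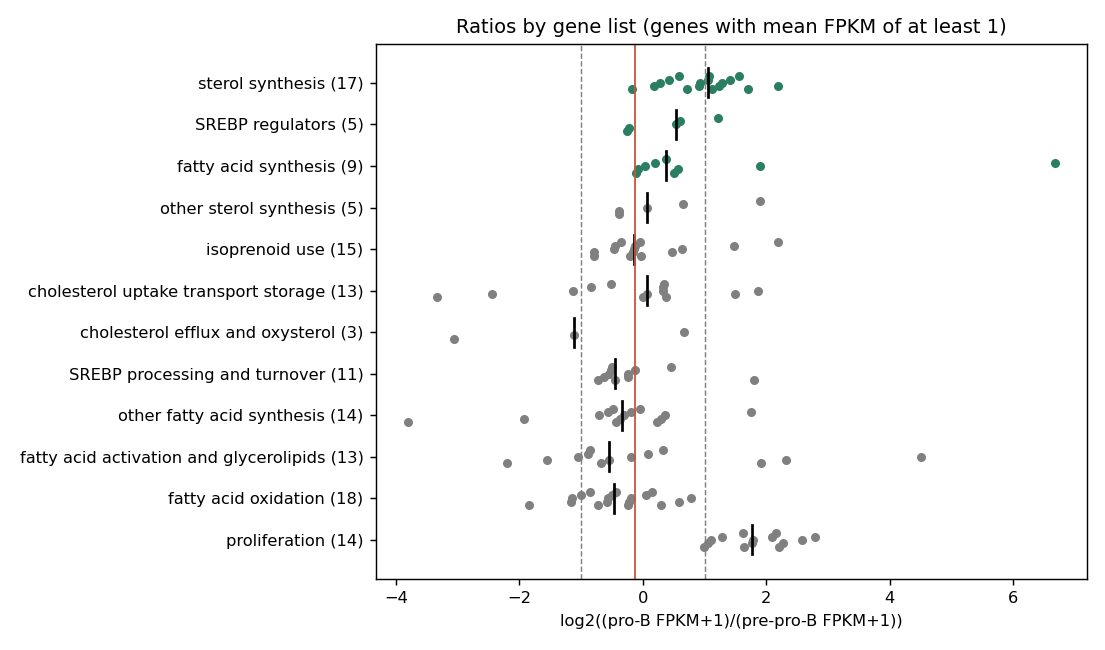
Log2 ratio of FPKM, pro-B over pre-pro-B, each with 1 added, for every gene that passed the filter in each list, with the number of genes in parentheses, black ticks for list medians, dashed lines at 2-fold and a red line at the median of all genes tested. The sterol synthesis median lies at 1.06 and the proliferation median at 1.77, while the medians of the grey lists of lipid genes lie between -1.12 and 0.07.

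Other features of the libraries differed together with these genes. Among all genes that passed the filter, 12.2% were higher and 17.9% were lower, and each count below can be set beside these shares. Of 14 proliferation genes, 13 were higher by 2-fold or more in the pro-B library, with a median log2 ratio of 1.77, and their summed FPKM was 740 and 2658. Their part in the sterol result was not tested. The stromal markers, for RNA of OP-9 cells, summed to an FPKM of 22.8 in the pre-pro-B library and 19.2 in the pro-B library over 13 genes, and *Dcn* and *Postn* were listed at 0. Without *Pdgfrb*, left out after its values were seen, the other 12 summed to 6.89 and 18.8, and the median log2 ratio of the 7 markers that passed the filter was 0.84. Of the stromal markers, *Col1a2* (0.707 and 2.82), *Fn1* (1.16 and 5.16) and *Cxcl12* (0.618 and 2.92) were higher by 2-fold or more in the pro-B library and *Pdgfrb* (15.9 and 0.377) was lower, and their part in the results was not tested. Of 9 adipocyte markers, 8 were below an FPKM of 1 in both libraries, *Cfd*, *Plin1* and *Cidec* were listed at 0, and the sum was 6.03 and 3.95. Most of that sum was *Fabp4* (4.71 and 2.57), while *Pparg* (0.295 and 0.553), *Lpl* (0.283 and 0.621) and *Plin4* (0.118 and 0.186) had higher values in the pro-B library. *Adipoq* (0.605 and 0.0268) and *Lep* (0.0117 and 0) had lower values there, as did *Fabp4*. The part of adipocyte RNA in the *Scd1* result was not tested. The myeloid markers summed to 282 and 9.54 over 10 genes, with *Elane* and *Ctsg* listed at 0. The 5 myeloid markers that passed the filter were each lower by 2-fold or more in the pro-B library. They include *Fcgr3* (218 and 2.88) and *Mpo* (35.7 and 0.122). The part of the myeloid RNA in any result was not tested. The erythroid markers summed to 0.449 and 0.232 over 7 genes with rows, and the hepatocyte markers to 1.95 and 0.0510 over 9, with *Alb* and *Afp* listed at 0. All 9 B lineage markers were higher by 2-fold or more in the pro-B library, and their summed FPKM was 73.8 and 2328. The targeted genes were lower in the library of their own null cells without being at 0, with an FPKM of 64.0 for *Ebf1* in the pre-pro-B library against 273, and of 22.9 for *Rag2* in the pro-B library against 34.5.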

How the data were processed

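Ribosomal RNA-depleted total RNA from each cell type, 1 library each, had been sequenced on a strand-specific, single-end design. The deposited FPKM were made by the authors, who trimmed the reads, aligned them to mm9 with TopHat (version 1.5 in the submitters' processing notes, and another version in the study's parameter list) and ran Cuffdiff 2.1.1 on RefSeq transcripts with multi-read and bias correction and without scaling between the libraries. A second deposited table holds the authors' own comparison (fold changes and p-values). It was not used, nor were its 2 columns of per-sample values.

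From the 30485 rows, the 26968 mRNA rows were taken and 26551 of them were named through a RefSeq table of GRCm38.p6, used for names alone. FPKM were summed per gene, repeated loci included. Coordinates come from GENCODE vM1 on NCBIM37 (mm9) or, where stated, from the deposited table. A pseudocount of 1, a minimum mean FPKM of 1 and a 2-fold limit were used, in Python 3.11.15 with pandas 2.3.3 and numpy 2.4.6. The counting was checked on artificial data. All 32 members are named, and of each other list at most the 4 genes with the largest ratio past 2-fold. The members and lists were chosen with earlier results of these data known. Promoter motifs were chosen after the values were seen. Alternatives were other pseudocounts, filters, scalings, transcript choices and row choices. Intervals cover the model of Cuffdiff and not biological variation.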

Additional observations from a re-analysis of the deposited data

How the results depend on the processing

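The direction of the sterol result held under every alternative tried for it. The number of sterol genes higher by 2-fold or more ranged from 7 to 10, against 9 as reported, with 0 lower. All sterol genes but *Tm7sf2* and *Hmgcs1* had a ratio above 0 wherever they were counted. Without the filter *Hmgcs1* was counted at its listed 0, a log2 ratio of 0, and the sterol median was 0.99. The sterol median ranged from 0.98 to 1.14, the fatty acid median from 0.27 to 0.46, and 2 fatty acid genes were higher under each alternative. Rescaling to TPM shifted each log2 ratio by -0.09 before the pseudocount and moved the median of all genes from -0.13 to -0.24, and rescaling by the median ratio shifted each by 0.09. With TPM, *Cyp51* (0.98) and *Msmo1* (0.98) lay just within 2-fold. *Mvk* passed 2-fold with a pseudocount of 0.1 (1.03), without one (1.05) and with median ratio scaling (1.01). With the most abundant mRNA in place of the sum, 1 gene of the set was lower in the pro-B library, *Insig2* at a log2 ratio of -1.25, where the construction leaves out its other mRNAs. Counting any mRNA of a gene, the Cuffdiff intervals did not overlap for 2 genes, *Scd1* and *Insig2*. No replicate could be left out. No paired analysis was possible because each cell type has 1 library. The spread between cultures was not measured, and read depth does not give it.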

Other observations

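Of 13 genes that activate fatty acids or build glycerolipids and passed the filter, 3 were higher by 2-fold or more in the pro-B library and 3 were lower, each 23.1% of the list, beside 12.2% and 17.9% of all genes. *Gpam*, the mitochondrial acyltransferase that starts glycerolipid synthesis, was at 7.06 FPKM in the pre-pro-B library (0.258 to 18.5) and 182 in the pro-B library (13.3 to 485), a log2 ratio of 4.50. *Acsl3*, an acyl-CoA synthetase, had 27.6 and 106. The acyltransferases *Agpat3* and *Agpat2* went opposite ways, *Agpat3* from 1.79 to 13.0 and *Agpat2* from 14.8 to 2.43.

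Of 18 fatty acid oxidation genes that passed the filter, 0 were higher by 2-fold or more in the pro-B library and 4 were lower, with a median log2 ratio of -0.47. *Acadm*, the medium-chain acyl-CoA dehydrogenase, was at 141 FPKM in the pre-pro-B library (10.1 to 271) and 38.3 in the pro-B library (5.27 to 71.5). The other 3 were *Slc25a20* (17.3 and 7.14), *Decr1* (18.4 and 7.70) and *Acads* (11.8 and 5.37), the last at the 2-fold line. The sum over the list was 561 and 418. Its share of lower genes can be set beside the 17.9% of all genes that were lower.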
